A study of Homo sapiens with 12 samples.

Results

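The metallothioneins and 2 partners of their zinc response were followed in an RNA-Seq experiment on HEK293T cells, a transformed human embryonic kidney line that is widely used as an expression host. The group holds 7 of the 58735 genes in the count table, chosen by name for their known function, with earlier results of these data known: the metallothioneins MT1E, MT1F, MT1G, MT1X and MT2A, the transcription factor MTF1 and the zinc exporter SLC30A1. All 12 libraries were of polyadenylated RNA from wild-type cells of 1 line, in 4 groups of 3. DMSO cells received neither compound. CEP cells were labelled with AHL-Pu-1, a clickable electrophilic purine that reacts with protein residues, at 25 µM for 1 h. 4SU cells received 4-thiouridine, a uridine analog that enters new RNA and lets UV light link this RNA to the proteins on it, at 100 µM for 16 h. CEP+4SU cells received both, all at 37 °C. The dose of CEP is in µM in the description of the design and in mM in the treatment protocol of the labels, and the µM value is used here. That protocol, which is the same for all 12 libraries, has the cells irradiated at 312 nm with 1 J/cm2 before CEP is added in serum-free medium. Whether cells without 4SU were irradiated is not given in the sources used here. The libraries of a group are described as biologically independent replicates in a single line, so that the p-values measure the spread between experiments on that line.

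Metallothioneins are small, cysteine-rich proteins that bind zinc and copper through thiolate clusters, and they buffer free zinc and react with electrophiles and oxidants. MTF1 senses zinc through its zinc fingers and binds metal response elements in the promoters of its targets, among which the metallothionein genes and SLC30A1 are the best known. SLC30A1 (ZnT1) carries zinc out of the cell across the plasma membrane, and MT2A and MT1X are the metallothioneins most often found in cultured human cells. The comparisons ask whether the compounds, which were used to label and crosslink RNA-binding proteins, altered these transcripts.

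The metal response element has the core TGCACNC or TGCGCNC, 7 letters long. These letters were searched on both strands in the 250 bases before the transcription start that RefSeq gives on GRCh38.p14, where a promoter was found for 4 of the 7 members. The MT2A promoter (chr16:56608334-56608583) held 7 matches, 5 on the gene's strand and 2 on the other, and that of MT1X (chr16:56682220-56682469) held 4. The SLC30A1 promoter (chr1:211579162-211579411) held 1 match and that of MTF1 itself (chr1:37859593-37859842) held 0. The RefSeq start of SLC30A1 lies upstream of the gene model counted here, whose 5′ end is at chr1:211578742. The bases between these 2 starts were not searched, so its number of matches depends on the start used. Among all 35116 promoters of this length, 24.8% held at least 1 match, 0.37% at least 4 and 0.0313% at least 7. The sequences are shown because they set the metallothionein promoters, dense in these letters, beside those of the exporter and the factor. They are written 5′ to 3′ on the strand of the gene, with matches in capitals, and a match on the other strand reads as its reverse complement.
MT2A, with 2 of its 7 matches, chr16:56608422-56608451, plus strand, within an exon of the longer gene model of GENCODE 29: agagccgggTGCGCCCggcccagTGCGCGC
MT1X, with all 4 matches, chr16:56682220-56682423, plus strand, upstream of the gene: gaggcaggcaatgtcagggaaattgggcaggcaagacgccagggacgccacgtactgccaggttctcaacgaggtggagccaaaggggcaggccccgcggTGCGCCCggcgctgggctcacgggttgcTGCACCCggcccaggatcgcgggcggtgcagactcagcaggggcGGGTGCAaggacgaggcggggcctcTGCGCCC
SLC30A1, with its 1 match, chr1:211579162-211579411, minus strand, upstream of the gene: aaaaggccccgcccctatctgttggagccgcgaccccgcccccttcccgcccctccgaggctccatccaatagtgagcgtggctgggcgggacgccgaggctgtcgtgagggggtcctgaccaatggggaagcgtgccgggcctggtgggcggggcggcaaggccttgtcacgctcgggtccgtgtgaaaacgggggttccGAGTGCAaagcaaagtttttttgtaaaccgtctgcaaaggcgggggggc
MTF1, with 0 matches, chr1:37859621-37859842, minus strand, upstream of the gene: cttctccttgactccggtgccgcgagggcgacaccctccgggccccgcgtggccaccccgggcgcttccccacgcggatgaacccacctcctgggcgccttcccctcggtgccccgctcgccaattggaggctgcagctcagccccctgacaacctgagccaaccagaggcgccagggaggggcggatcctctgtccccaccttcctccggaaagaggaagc
The 2 matches shown for MT2A lie 7 bases apart on the same strand, in a stretch picked because its matches are dense. All 7 matches of MT2A begin from 246 to 8 bases before the start. The 4 of MT1X begin from 150 to 53 bases before it, and the match of SLC30A1 begins 49 bases before it. A match describes the letters and is not a measured binding site. MT1E, MT1F and MT1G were not searched.

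Sequencing depth was similar across the libraries, with 16569114 to 24644734 counts on genes. CEP replicate 2 and CEP+4SU replicate 2 held counts on 22230 and 22627 genes, below the 24376 to 25869 of the others. Results on the members that rest on them are given without them where they move. Values of the other genes named are not given without them. NEFL, NEFM, INA, PAX2 and LHX1, which are known in HEK293T cells, were detected. Of 9 markers of blood, endothelium, liver and fibroblasts, CD3E was at 0 and 6 others stayed at or under 0.939 CPM (counts scaled by library size) in every library, while the collagens COL1A1 at 28.7 to 41.9 CPM and COL3A1 at 4.01 to 6.72 CPM were present. Counts below are given as CPM of the TMM library size, with SD over the 3 libraries of a group, and levels of different genes are compared only as FPKM, which also divides by gene length.

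MT1E and MT1G, both inducible metallothioneins, had 0 counts in each of the 12 libraries. For a single library, 3 counts, the limit that a count of 0 allows, correspond to 0.124 to 0.177 CPM, and over all 238951234 counts together to 0.0126 CPM. These limits cover counting error only, since reads without molecular identifiers are not independent molecules. MT1E (ENSG00000169715) lies at chr16:56625475-56627112 on the plus strand and MT1G (ENSG00000125144) at chr16:56666731-56668065 on the minus strand of GRCh38, within the metallothionein cluster. A count of 0 could follow from reads that match several genes. Each run of 100 or 150 bases in their longest protein-coding transcripts was therefore looked up in the transcripts of all other genes. Only exact matches were sought, so the search does not cover near-identical stretches or copies outside annotated transcripts. Of 630 runs of 100 bases in MT1E and 529 in MT1G, 0 occurred in the transcript of another gene, and the same held for runs of 150 bases.

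The lack of counts on these 2 genes was shared by most of the cluster. Of 21 metallothionein genes and pseudogenes found by name, 16 lie on chromosome 16, and 13 of these were at 0 in all 12 libraries. The 3 with counts were MT2A, with 5152 counts over all libraries, MT1X with 1018 and MT1F with 587. In order of position, MT4 and MT3 before MT2A were at 0, as were the 8 genes between MT2A and MT1F (MT1L, MT1E, MT1M, MT1JP, MT1A, MT1DP, MT1CP and MT1B) and the 3 between MT1F and MT1X (MT1G, MT1H and MT1IP). MT3 is known as the metallothionein of brain and MT4 as that of squamous epithelium. Counting protein-coding genes alone, 8 of 11 in the cluster were at 0, where 11.2% of all 19951 protein-coding genes were. Of 5 metallothionein pseudogenes or genes on other chromosomes 4 had a count, 59 counts in all.

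**Figure D1:**
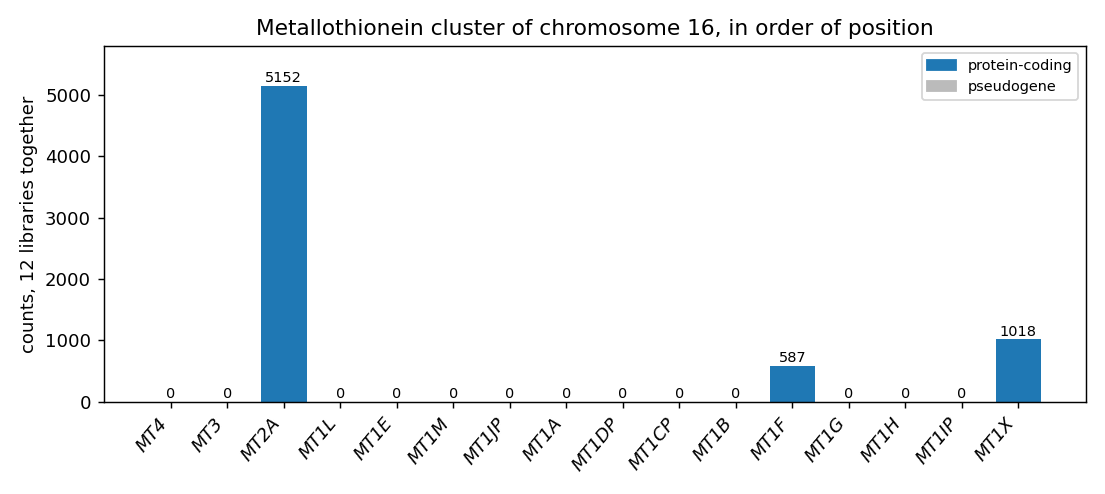
Counts summed over the 12 libraries (vertical axis) for the 16 metallothionein genes and pseudogenes of chromosome 16, in order of position (horizontal axis), with protein-coding genes in blue and pseudogenes in grey. Counts were found for MT2A, MT1F and MT1X, and the other 13 were at 0.

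MT2A (ENSG00000125148, chr16:56608199-56609497, plus strand), the main metallothionein of most human cells, was the most abundant member per length in every group. Its mean FPKM was 18.6 ± 0.763 in DMSO, 17.1 ± 1.22 in CEP, 16.4 ± 1.58 in 4SU and 13.8 ± 3.79 in CEP+4SU (SD, n = 3), and its mean over all libraries was at the 81.9 percentile of the 17729 genes tested. SLC30A1 followed, at 5.64 ± 0.580 FPKM in DMSO, and its values did not overlap with those of MT2A in any group. MT1X at 2.89 ± 0.763 FPKM and MTF1 at 2.45 ± 0.414 FPKM came next in DMSO with overlapping values, overlapped again in CEP, and stood in the order MTF1, MT1X in the other 3 groups, by their means. By FPKM, MT1F was the lowest detected member in all 4 groups, at 1.65 ± 0.0875 FPKM in CEP, and did not overlap with the neighbour above it.

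The order below MT2A depends on the length used. The FPKM values divide by the summed exon length of a gene, 1773 bases for MT1X and 1889 for MT1F, whereas their longest protein-coding transcripts have 538 and 690 bases. Divided by transcript length, an alternative added after the data were seen, MT1X was second in all 4 groups, at 9.60 ± 2.51 CPM per kb in DMSO against 5.69 ± 0.598 for SLC30A1, and MT2A stayed first at 31.1 ± 1.19. The mean of MT1F, 3.50 ± 0.817 in DMSO, was then above that of MTF1, 2.49 ± 0.420, in DMSO, CEP and CEP+4SU. The level of MT1X is also uncertain, since 50.8% of the runs of 100 bases in its transcript are shared with AC026461.1, an overlapping gene on the same strand. AC026461.1 itself had 0 counts.

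The first comparison asks what 1 h of CEP did. Across all genes, 10 of 17729 passed an adjusted p of 0.05 (edgeR quasi-likelihood test, Benjamini-Hochberg adjustment), which is 0.0564%, and 0 of the 5 members tested passed. The count over all genes is not firm, since it was 4 without DMSO replicate 2 and 1214 without CEP replicate 1, and the members' count stayed at 0 in both. At an unadjusted p under 0.05 the count of members was also 0, where 18.6% of all genes had such a p. DESeq2 called 0 of the 3 members to which it gave an adjusted p and gave none to MT1F and MT1X. The median log2 fold change of the 5 was 0.14, with 2 of them lower, beside a median of -0.0047 over all genes tested. In bulk RNA, fewer cells that express a gene and less RNA per cell cannot be told apart.

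MT2A was at 25.5, 24.0 and 23.7 CPM in the DMSO libraries and at 21.8, 24.3 and 21.4 CPM in the CEP libraries. The CEP libraries 1 and 3 were below all of DMSO and CEP replicate 2 lay among them, and the log2 fold change was -0.12 (95% interval -0.42 to 0.18, edgeR adjusted p = 0.674). MT1X (ENSG00000187193, chr16:56682424-56684196, plus strand), the last metallothionein of the cluster in order of position, was at 6.34, 5.47 and 3.69 CPM in DMSO and at 3.30, 6.89 and 3.94 CPM in CEP. Its groups overlapped, with the highest and the lowest of the 6 libraries both in CEP. The log2 fold change was -0.14 (interval -0.68 to 0.41), and it was 0.073 without CEP replicate 1 and -0.51 without CEP replicate 2. MT1F (ENSG00000198417, chr16:56657694-56660698, plus strand), the least abundant of the 3, was at 2.95, 2.46 and 1.82 CPM in DMSO and at 2.98, 3.30 and 3.18 CPM in CEP. All CEP libraries were above all DMSO libraries, by a margin between the nearest of them that is small against the spread within DMSO. The log2 fold change of 0.39 (interval -0.20 to 0.97) did not pass (edgeR adjusted p = 0.455), and it was 0.22 without DMSO replicate 3 and 0.56 without DMSO replicate 1.

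MTF1 (ENSG00000188786, chr1:37809567-37859620, minus strand), the zinc-sensing factor, was at 16.7, 23.4 and 19.6 CPM in DMSO and at 22.4, 22.4 and 25.6 CPM in CEP. The groups overlapped, since DMSO replicate 2 was above both CEP libraries at 22.4 CPM, and the log2 fold change was 0.24 (interval -0.0093 to 0.50, edgeR adjusted p = 0.284). It ranged from 0.13 without DMSO replicate 1 to 0.38 without DMSO replicate 2. SLC30A1 (ENSG00000170385, chr1:211571568-211578742, minus strand), the exporter, was at 27.4, 32.7 and 33.3 CPM in DMSO and at 31.9, 35.7 and 35.5 CPM in CEP. It overlapped between the groups through CEP replicate 1, with a log2 fold change of 0.14 (interval -0.14 to 0.42, adjusted p = 0.579), which was 0.055 without DMSO replicate 1 and turned to -0.046 once the trend of each library on GC content was removed. SLC30A1 has a GC content of 38.0% where the median gene tested has 48.5%.

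**Figure D2:**
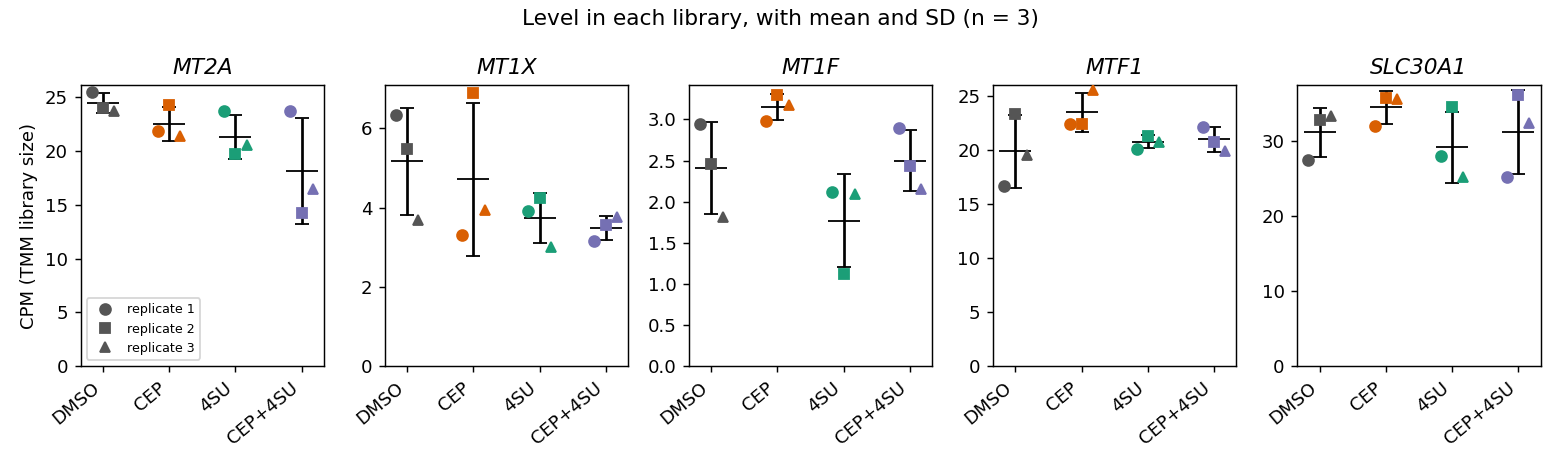
Level of the 5 detected members in each library, as CPM of the TMM library size (vertical axes from 0), for the 4 groups; circles, squares and triangles are replicates 1, 2 and 3, and bars give the mean and SD (n = 3). MT2A reached its lowest values, 14.2 and 16.5 CPM, in CEP+4SU replicates 2 and 3, and SLC30A1 ranged from 25.1 to 36.1 CPM within that group alone.

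The second comparison, 16 h of 4SU against DMSO, called 1 gene in all, which is 0.00564% of those tested, and 0 of the 5 members by edgeR, with 0 at an unadjusted p under 0.05 beside 6.50% of all genes. DESeq2 gave an adjusted p to 0 of the 5 and so could call none of them. The comparison shares its DMSO libraries with the first. The members' median log2 fold change was -0.19, with 4 of 5 lower, beside -0.0073 over all genes. MT2A was at 23.7, 19.7 and 20.5 CPM in 4SU. All 4SU libraries were below all DMSO libraries, but the nearest of them both round to 23.7 CPM, and the log2 fold change was -0.19 (interval -0.50 to 0.11, adjusted p = 0.837). MT1X at 3.92, 4.24 and 3.02 CPM overlapped with DMSO, and its log2 fold change was -0.47 (interval -1.03 to 0.087, adjusted p = 0.792), or -0.29 without DMSO replicate 1. MT1F was at 2.12, 1.12 and 2.09 CPM, overlapping with DMSO, at a log2 fold change of -0.43 (interval -1.04 to 0.18), which was -0.19 without 4SU replicate 2. The partners of the metallothioneins lay closer to DMSO. MTF1 was at 20.1, 21.3 and 20.8 CPM, all within the DMSO range, with a log2 fold change of 0.064 (interval -0.19 to 0.32). SLC30A1 was at 27.9, 34.4 and 25.2 CPM, on both sides of the DMSO range, with a log2 fold change of -0.097 (interval -0.38 to 0.19). Without DMSO replicate 1 the value for MTF1 was -0.045, and without 4SU replicate 3 that for SLC30A1 was 0.0056.

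The third comparison, CEP+4SU against the same DMSO libraries, called 290 genes, 1.64% of those tested, and again 0 of the 5 members by edgeR. Over all genes the count was 14 without DMSO replicate 2 and 812 without CEP+4SU replicate 1. DESeq2 called 0 of the 3 members to which it gave an adjusted p, and gave none to MT1F and MT1X. At an unadjusted p under 0.05 there were 2 of 5, MT2A and MT1X, where 21.4% of all genes had such a p. The members' median log2 fold change was 0.0053, with 2 of 5 lower, beside 0.000066 over all genes. For the 3 metallothioneins alone the median was -0.43.

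MT2A was at 23.7, 14.2 and 16.5 CPM in CEP+4SU, against 23.7 CPM in the lowest DMSO library. The 3 libraries were below all of DMSO, but replicate 1 by less than the rounding, and replicates 2 and 3 stood well below it. The mean was 18.1 ± 4.94 CPM against 24.4 ± 0.934 in DMSO (SD, n = 3). The log2 fold change was -0.43 (SE 0.15, interval -0.74 to -0.13, edgeR adjusted p = 0.107). Single libraries decide this call. Without CEP+4SU replicate 1 the value was -0.68 (edgeR adjusted p = 0.0197), and without CEP+4SU replicate 2 it was -0.28 (adjusted p = 0.458). Without replicate 2 of both CEP-treated groups it was -0.28 (adjusted p = 0.321), and over all alternatives run the adjusted p ranged from 0.0197 to 0.458. With every gene with a count tested, without a filter on low counts, the value of -0.44 passed (adjusted p = 0.0343), and it did not by DESeq2 (-0.43, adjusted p = 0.0565). With the GC trend removed it was -0.35 (adjusted p = 0.179). MT2A has a GC content of 53.9%.

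MT1X was at 3.17, 3.55 and 3.77 CPM in CEP+4SU, the narrowest spread of its 4 groups, at ± 0.302 CPM against ± 1.35 in DMSO. CEP+4SU replicates 1 and 2 were below all of DMSO and replicate 3 was above its lowest library, at 3.69 CPM. The log2 fold change was -0.56 (interval -1.12 to -0.0043, edgeR adjusted p = 0.230), from -0.76 without DMSO replicate 3 to -0.39 without DMSO replicate 1. MT1F, at 2.90, 2.44 and 2.16 CPM, stayed within the DMSO range, with a log2 fold change of 0.053 (interval -0.54 to 0.65) that was -0.12 without DMSO replicate 3. MTF1 at 22.2, 20.8 and 19.9 CPM also stayed within it (log2 fold change 0.081, interval -0.17 to 0.33), with -0.033 without DMSO replicate 1. SLC30A1 was at 25.1, 36.1 and 32.3 CPM, on both sides of DMSO, and its log2 fold change was 0.0053 (interval -0.28 to 0.29). It took either sign under the alternatives, from -0.18 with the GC trend removed to 0.12 without CEP+4SU replicate 1.

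**Figure D3:**
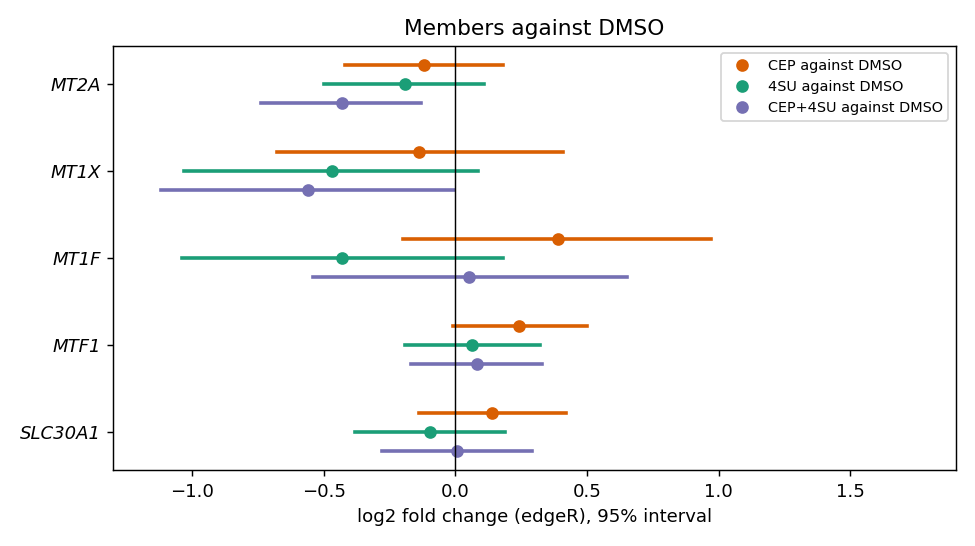
Log2 fold change against DMSO (horizontal axis) with its 95% interval from the edgeR fit, for the 5 detected members (rows) in CEP, 4SU and CEP+4SU. The intervals of MT2A and MT1X in CEP+4SU, -0.74 to -0.13 and -1.12 to -0.0043, lie below 0 before adjustment, and the other 13 hold 0.

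With the 4 groups taken as a design of 2 factors, each compound was averaged over the other. CEP averaged over 4SU called 49 genes, 0.276% of those tested, and 0 of the 5 members by edgeR, with 1, MT1F, at an unadjusted p under 0.05, beside 24.3% of all genes. Over all genes the count was 21 without DMSO replicate 2 and 2171 without CEP replicate 1. DESeq2 called 0 of the 3 members other than MT1F and MT1X, to which it gave no adjusted p. The log2 fold change of MT1F was 0.44 (interval 0.011 to 0.86, edgeR adjusted p = 0.195), where that of MT2A was -0.18 (interval -0.40 to 0.037, adjusted p = 0.295) and that of MT1X -0.11. The value of MT1X was -0.30 without CEP replicate 2 and -0.012 without CEP replicate 1. Without CEP+4SU replicate 1 MT2A passed, at -0.31 (edgeR adjusted p = 0.0423), and without CEP+4SU replicate 2 it was at -0.11 (adjusted p = 0.591), with a highest adjusted p of 0.701 over the alternatives run. MTF1 was at 0.13 and SLC30A1 at 0.12, with adjusted p of 0.365 and 0.447, and without replicate 2 of both CEP-treated groups SLC30A1 was at 0.047. The median of the 5 was 0.12, beside -0.0065 over all genes.

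4SU averaged over CEP called 99 genes, 0.558%, and 0 of the 5 members by edgeR. Over all genes the count ranged from 6 without DMSO replicate 1 to 125 without CEP+4SU replicate 2. DESeq2 called 0 of the 4 members other than MT1F, to which it gave no adjusted p. At an unadjusted p under 0.05 there were 2 of 5, where 12.6% of all genes had such a p: MT2A at a log2 fold change of -0.25 (interval -0.47 to -0.036, edgeR adjusted p = 0.305) and MT1X at -0.45 (interval -0.84 to -0.050, adjusted p = 0.328). Without replicate 2 of both CEP-treated groups these were -0.14 and -0.26, and without CEP replicate 2 alone MT1X was at -0.26. MT1F was at -0.38, SLC30A1 at -0.12 and MTF1 at -0.049, so that all 5 values were below 0, with a median of -0.25 beside -0.0019 over all genes, of which 50.7% were lower. The value of MTF1 was 0.019 without DMSO replicate 2. Whether the effect of CEP differed with 4SU was tested by the interaction, which called 0 genes of 17729, 0% (467 at an unadjusted p under 0.05, 0 by DESeq2), and 0 members by either tool, 0 of them at an unadjusted p under 0.05. The members' interaction terms ran from -0.23 for MTF1 (interval -0.59 to 0.13) to 0.098 for MT1F (interval -0.75 to 0.94).

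Metallothionein mRNA was also summed over the 5 metallothionein members in each library. The sum was 34.8, 32.0 and 29.2 CPM in DMSO and 28.1, 34.5 and 28.5 CPM in CEP. It was 29.7, 25.1 and 25.7 CPM in 4SU and 29.8, 20.2 and 22.4 CPM in CEP+4SU. The group means were 32.0 ± 2.76, 30.3 ± 3.59, 26.8 ± 2.51 and 24.1 ± 5.00 CPM (SD, n = 3), and on the log2 scale the means differed from DMSO by -0.080, -0.25 and -0.42. Each treated group overlapped with DMSO, and no test was made on the sum. Without CEP+4SU replicate 1 the last difference was -0.58, and without CEP+4SU replicate 2 it was -0.31. MT2A held 70.4% to 81.1% of these counts, not corrected for length, with group means from 74.3% to 79.5%.

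**Figure D4:**
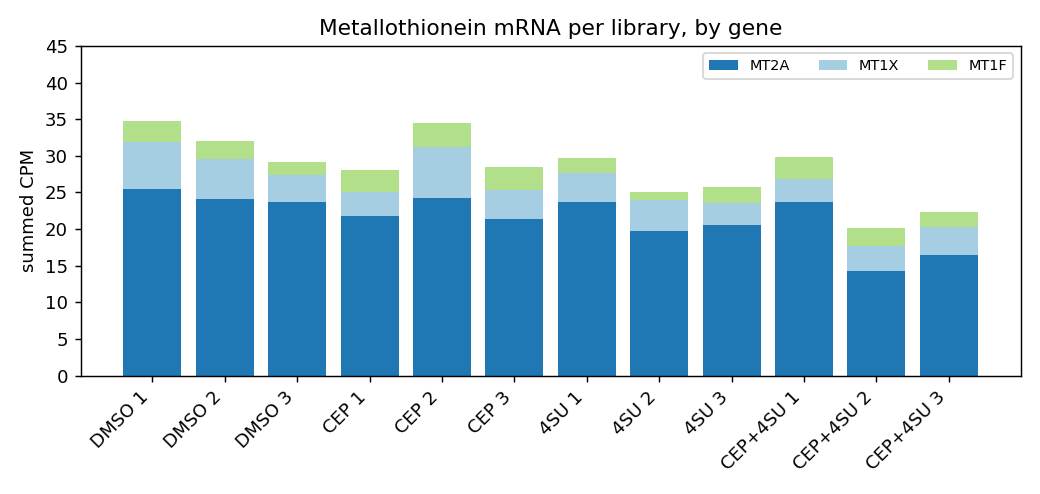
Summed level of the metallothionein members in each of the 12 libraries (CPM of the TMM library size, vertical axis from 0), split into MT2A, MT1X and MT1F; MT1E and MT1G were at 0. The sum runs from 20.2 CPM in CEP+4SU replicate 2 to 34.8 CPM in DMSO replicate 1.

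Zinc is moved by 2 transporter families, the SLC30 exporters, which lower zinc in the cytosol, and the SLC39 importers, which raise it. Of the 9 exporters other than SLC30A1, 7 were tested and 0 passed in any of the 6 comparisons by edgeR. For CEP averaged over 4SU, 5 of the 7 had an unadjusted p under 0.05, where 24.3% of all genes did, and 1 of the 7 was lower, with a median of 0.17 beside -0.0065 over all genes. SLC30A4, which fills vesicles with zinc, was at 0.32 (interval 0.15 to 0.49, edgeR adjusted p = 0.0662), and SLC30A7, which loads the secretory pathway, was at 0.26 (adjusted p = 0.0902). These genes were picked after their values were seen. SLC30A3, known from synaptic vesicles, had the largest change of its list in CEP+4SU, at -0.42 (interval -0.84 to -0.0076, adjusted p = 0.226), with 13.6, 8.34 and 11.8 CPM against 14.5, 17.1 and 13.6 CPM in DMSO. Both CEP-treated libraries numbered 2 held its lowest values, with 7.72 CPM in CEP.

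Of the 14 importers, 11 were tested and 0 passed in any comparison by edgeR. In CEP+4SU the median log2 fold change was -0.028, with 6 of 11 lower and 2 at an unadjusted p under 0.05, where 21.4% of all genes had such a p. For CEP averaged over 4SU the median was 0.023, with 5 of 11 lower and 5 at such a p, beside 24.3%. Of the latter 5, SLC39A6, SLC39A8 and SLC39A10 were higher, with a GC content of 41.6%, 44.8% and 37.6%. SLC39A3 and SLC39A13 were lower, with one of 58.0% and 62.8%. A link to GC content was not tested here either. SLC39A1, a plasma membrane importer, had the largest change of the list in CEP+4SU, at -0.62 (interval -1.40 to 0.15, adjusted p = 0.340), from counts of 39, 50 and 19 against 45, 70 and 72 in DMSO. SLC39A10, an importer that MTF1 is known to repress, is given for that role after its values were seen. It was at 129, 132 and 139 CPM in DMSO and at 141, 182 and 182 CPM in CEP. Its log2 fold change was 0.33 (interval 0.12 to 0.55, edgeR adjusted p = 0.173), in a comparison where 18.6% of all genes had an unadjusted p under 0.05. In CEP+4SU its log2 fold change was 0.044.

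**Figure D5:**
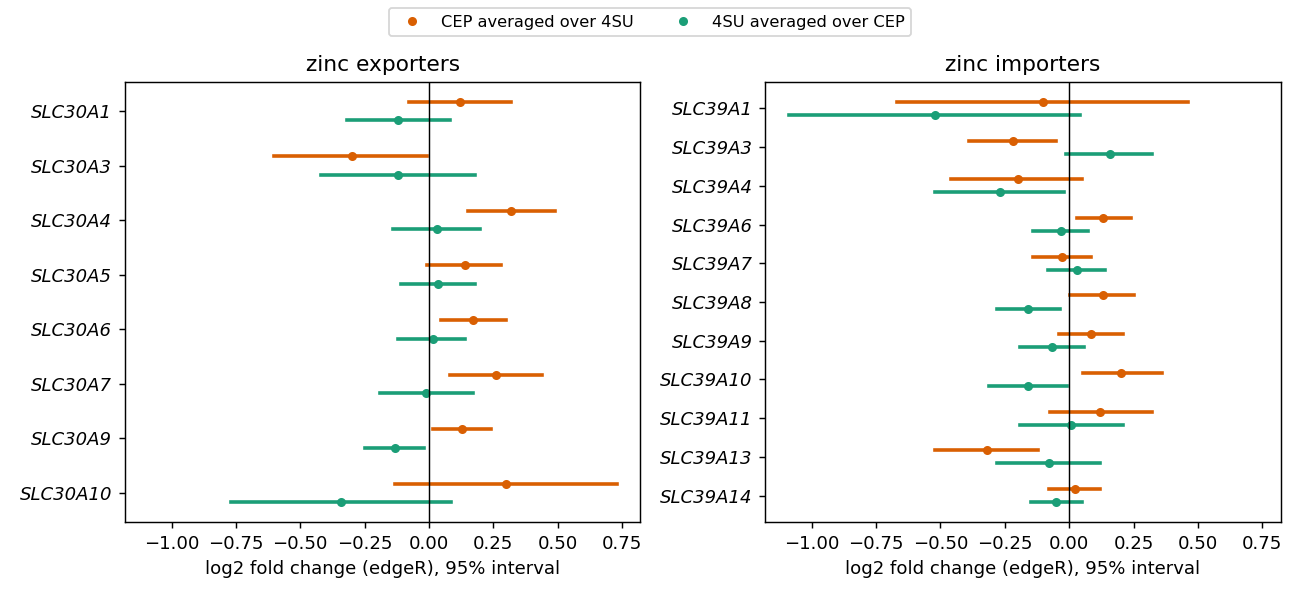
Log2 fold change (horizontal axes) with its 95% interval for CEP averaged over 4SU and 4SU averaged over CEP, for SLC30A1 with the 7 other exporters tested and for the 11 importers tested. For CEP, 5 exporters and 5 importers have intervals that leave out 0 before adjustment, and 0 pass after it.

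Metallothioneins also hold copper. Of 10 genes of copper handling, found as 11 entries of the table, 9 were tested and 0 passed in any comparison by edgeR, with a median in CEP+4SU of -0.14 and 3 of 9 at an unadjusted p under 0.05, beside 21.4% of all genes. COMMD1, which takes part in copper export, had the largest change in CEP+4SU among the genes that averaged 1 CPM or more, at -0.44 (interval -0.77 to -0.11, adjusted p = 0.123). Its CEP+4SU libraries were at 8.06, 8.29 and 6.48 CPM and those of DMSO at 9.68, 10.7 and 10.6 CPM.

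Among 10 genes that metals and electrophiles are known to induce, all were tested and 1 passed, HMOX1, the heme oxygenase that cadmium and other thiol-reactive agents induce. HMOX1 fell in CEP+4SU, by 0.68 on the log2 scale (SE 0.10, edgeR adjusted p = 0.00468), with 63.5, 51.2 and 56.7 CPM against 93.6, 90.8 and 90.2 CPM in DMSO. It also fell for 4SU averaged over CEP, by 0.46 (SE 0.073, edgeR adjusted p = 0.00890), a call that was lost without DMSO replicate 1, 4SU replicate 2 or 4SU replicate 3. Both calls were lost by limma on log2 FPKM over all genes with a value. For CEP against DMSO it was at -0.18 (edgeR adjusted p = 0.338). For 4SU against DMSO it was at -0.42 (interval -0.63 to -0.20, edgeR adjusted p = 0.521). In this last comparison DESeq2 called 1 gene of all the lists together, beside 19 of all genes. By edgeR the count was also 1 without the low-count filter, beside 41, and with only the 6 libraries compared, beside 94. Which gene this was is not given here. Among all genes tested, 1.64% passed in CEP+4SU and 0.558% for 4SU averaged over CEP. The median of the 10 was 0.058 in CEP+4SU, with 2 at an unadjusted p under 0.05, beside 21.4% of all genes, and 0 of the 10 passed in the higher direction in any comparison. For CEP averaged over 4SU, edgeR called 0 genes in these lists together, beside 49 of all genes, and DESeq2 called 5, beside 1474. The count of 0 is not firm. By edgeR it was 8 without CEP replicate 1, beside 2171 of all genes. It was 4 without the low-count filter, beside 1448, and 10 with the replicate block, beside 2269.

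Across the 12 libraries the correlations between members were modest. MT1F had 19 to 67 counts per library and MT1X 58 to 144, so that counting error enters their values. The correlations of their log2 CPM (Pearson's r, n = 12 libraries, given as a description since the libraries share treatments) ran from -0.37 for MT2A with SLC30A1 to 0.43 for MT2A with MT1X. MTF1 and SLC30A1 had an r of 0.38, and MTF1 and MT2A one of -0.04. By ranks (Spearman's rho) the values ran from -0.23 for MT2A with SLC30A1 to 0.55 for MT1F with MTF1. The genes most like MT2A among 14902 compared were EPHX1 (r = 0.94), TESC (0.92) and DCP1B (0.91), and those most like MT1X were WDR31 (0.88), ZFAND3 (0.87) and SGPP2 (0.87). For SLC30A1 they were TENT4B (0.92), MFSD6 (0.91) and ADGRG6 (0.89), and for MTF1 POLE2 (0.90), AP002784.2 (0.84) and GPR137C (0.84). The highest r among 14902 genes over 12 libraries can be high for unrelated genes too. Whether these values exceed that level was not tested.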

How the data were processed

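Read counts per gene were made by the authors, who removed reads with adapters, poly-N stretches or low quality, aligned with HISAT2 2.0.5 to GRCh38 and counted with featureCounts 1.5.0-p3, and were deposited as whole numbers. FPKM values were deposited by the authors on a linear scale. Whether counting used strand is not given in the sources used here, so that overlapping antisense reads cannot be told apart. Depth was 16569114 to 24644734 counts per library. The members and gene lists were chosen with earlier results of these data known. Genes were filtered with filterByExpr (minimum count 10, minimum total 15), scaled by TMM and fitted in one quasi-likelihood model over 12 libraries (R 4.3.3, edgeR 4.0.16) with Benjamini-Hochberg adjustment over 17729 genes at 0.05. The script was tested on simulated data. Named genes were all members, list genes that passed, the gene of each list with the largest change in CEP+4SU at a mean of at least 1 CPM, and for MT2A, MT1X, SLC30A1 and MTF1 the 3 genes with the highest r. Alternatives were DESeq2 1.42.0, limma 3.58.1 on log2(FPKM + 1) or log2(FPKM + 0.1), other scalings and filters, only the 6 libraries compared, length and GC trends removed, a replicate block, an adjusted p of 0.5 as the study prints, and each library left out. The removal of both CEP-treated libraries numbered 2 and the division by transcript length were chosen after the data were seen. The table of group mean FPKM was not used. One gene of the cell line marker list is not reported here. Promoters were taken from RefSeq and transcripts from GENCODE 29.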

Additional observations from a re-analysis of the deposited data

How the results depend on the processing

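The count of members called stayed at 0 for 4SU against DMSO and for the interaction under every alternative run, and at an adjusted p of 0.5 it was 2 for CEP, 2 for CEP+4SU, 4 for CEP averaged over 4SU and 3 for 4SU averaged over CEP. MT2A in CEP+4SU was the 1 member called without the low-count filter and with the replicate block (-0.45, adjusted p = 0.0342). Any pairing of the libraries by replicate number was weak by correlation, and it was not tested. Deviations from the group mean correlated above 0.1 in 1 of 18 same-numbered pairs and in 0 of 36 differently numbered pairs. The median r was 0.01 for the former and -0.01 for the latter, and 7 of 12 libraries correlated best with their own number. With each library left out in turn, the count of members called ranged from 0 to 1 for CEP+4SU and for CEP averaged over 4SU. Over all genes the counts moved much more: DESeq2 called 197 for CEP, 19 for 4SU, 1141 for CEP+4SU, 1474 for CEP averaged over 4SU and 336 for 4SU averaged over CEP, where edgeR called 10, 1, 290, 49 and 99. In the same order the counts were 662, 41, 1234, 1448 and 311 without the low-count filter, 780, 8, 1667, 2269 and 336 with the replicate block, and 0, 6, 0, 7 and 17 by limma on log2(FPKM + 1). At an adjusted p of 0.5 they were 7864, 19, 8336, 9271 and 3633.

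Direction turned only in values whose intervals hold 0. In CEP, MT2A was at 0.0078 with the length trend removed and SLC30A1 at -0.046 with the GC trend removed. In CEP+4SU, SLC30A1 was at -0.0016 without the low-count filter, -0.0047 by limma on log2(FPKM + 1) with or without the filter, -0.0069 with a pseudocount of 0.1, -0.0038 with the replicate block, -0.18 with the GC trend removed and -0.11 without both libraries numbered 2. For CEP averaged over 4SU it was at -0.035 with the GC trend removed. Among the interactions, MT1X was at -0.033 with the length trend removed, SLC30A1 at 0.024 with the GC trend removed and MT2A at 0.080 without both libraries numbered 2. With each library left out in turn, MT1X in CEP ranged from -0.51 to 0.073, and in 4SU MTF1 from -0.045 to 0.20 and SLC30A1 from -0.22 to 0.0056. In CEP+4SU, MT1F ranged from -0.12 to 0.22, MTF1 from -0.033 to 0.21 and SLC30A1 from -0.11 to 0.12, and for 4SU averaged over CEP, MTF1 from -0.10 to 0.019. The interactions ranged from -0.17 to 0.41 for MT1X, -0.14 to 0.26 for MT1F, -0.17 to 0.085 for SLC30A1 and -0.36 to 0.018 for MT2A. The causes were not tested. For MT1E and MT1G, the counts of 0 allow a level of up to 0.0126 CPM over the 12 libraries together, by counting error alone.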
